A study of Mus musculus with 2 samples.

Results

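The Hox genes were taken from white and brown adipose precursor cells as all genes whose symbol is Hox, a cluster letter from a to d and a number. The rule found 39 of the 32285 genes listed, 11 in the Hoxa cluster, 10 in Hoxb, 9 in Hoxc and 9 in Hoxd, and it used no measured value. Stromal vascular cells of the subcutaneous white depot and of the interscapular brown depot came from C57/BL6 pups of both sexes. The pups were at postnatal day 0 per the labels and at day 1 per the study's methods. The tissues were digested with collagenase for 35 min (white) or 50 min (brown), and the adherent cells were grown to confluency, in 4 days per the labels, before droplet capture. Pups were pooled and each depot gave 1 library, so animals cannot be told apart, no difference below has a replicate check and no p-value was computed. Which subcutaneous depot was dissected was not given in the sources used here.

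Hox genes encode homeodomain transcription factors. They lie in 4 clusters in mammals, and the number of a gene, its paralogue number, follows its place in the cluster. Low numbers are used from the hindbrain and neck backwards, higher numbers start further back, and the highest are used in the lumbar, sacral and tail regions. Mesenchymal cells grown from different body sites are known to keep much of this pattern in culture.

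The members results turn on are shown by their promoters, because adjacent genes of a cluster went in opposite directions between the depots. RefSeq (GRCm38.p6) gave promoters for 22 of the 39 genes, 9 of Hoxa, 3 of Hoxb, 1 of Hoxc and 9 of Hoxd. The 250 bases before the start site are printed, 5′ to 3′ on the strand of the gene. Hoxa5 and Hoxa7 were higher in brown cells, Hoxa9 and Hoxa10 are their neighbours that were higher in white cells, and Hoxc4 and Hoxd4 are paralogues that differed in opposite directions. For Hoxa10, which has 2 starts in the table, the upstream start is shown.
Hoxa5, chr6:52204588-52204837, minus strand: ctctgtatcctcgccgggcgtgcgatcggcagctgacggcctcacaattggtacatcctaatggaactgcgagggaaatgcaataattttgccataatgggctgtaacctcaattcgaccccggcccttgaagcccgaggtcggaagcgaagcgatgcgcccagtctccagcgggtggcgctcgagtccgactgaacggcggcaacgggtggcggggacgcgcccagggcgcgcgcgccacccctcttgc
Hoxa7, chr6:52218574-52218823, minus strand: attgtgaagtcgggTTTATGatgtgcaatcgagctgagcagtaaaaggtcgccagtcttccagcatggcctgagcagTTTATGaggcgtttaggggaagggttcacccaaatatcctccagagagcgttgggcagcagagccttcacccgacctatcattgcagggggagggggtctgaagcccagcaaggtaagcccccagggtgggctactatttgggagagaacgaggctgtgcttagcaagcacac
Hoxa9, chr6:52227371-52227620, minus strand: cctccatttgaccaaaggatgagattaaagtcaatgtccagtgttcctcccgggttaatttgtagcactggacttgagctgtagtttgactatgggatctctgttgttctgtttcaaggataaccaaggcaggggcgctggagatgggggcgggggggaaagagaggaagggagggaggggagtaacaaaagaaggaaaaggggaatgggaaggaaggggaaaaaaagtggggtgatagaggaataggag
Hoxa10, chr6:52240855-52241104, minus strand: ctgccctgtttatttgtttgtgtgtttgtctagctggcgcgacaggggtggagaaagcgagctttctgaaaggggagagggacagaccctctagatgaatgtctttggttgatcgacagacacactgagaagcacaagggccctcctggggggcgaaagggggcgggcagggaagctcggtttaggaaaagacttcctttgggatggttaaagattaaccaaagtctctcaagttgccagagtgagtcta
Hoxc4, chr15:103034145-103034394, plus strand: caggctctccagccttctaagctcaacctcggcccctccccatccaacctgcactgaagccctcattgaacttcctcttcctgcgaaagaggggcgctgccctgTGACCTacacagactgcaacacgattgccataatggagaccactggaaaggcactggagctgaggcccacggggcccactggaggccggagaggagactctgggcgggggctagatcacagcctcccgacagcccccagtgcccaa
Hoxd4, chr2:74721728-74721977, plus strand: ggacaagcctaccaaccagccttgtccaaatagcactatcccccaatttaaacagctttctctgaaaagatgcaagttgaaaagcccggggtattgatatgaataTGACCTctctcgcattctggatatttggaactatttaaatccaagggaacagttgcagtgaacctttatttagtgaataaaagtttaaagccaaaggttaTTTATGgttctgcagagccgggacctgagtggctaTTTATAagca
Capitals mark matches, on either strand, to the letters of 5 motifs, TGATNNAT for a site bound by Hox and Pbx together, the core of a CTCF site, AGGTCA for the core of a retinoic acid receptor site, TTTATG for a Cdx site and TATAAA for a TATA box. AGGTCA was found in 6 of the 24 Hox promoters and in 14% of all 32851 promoters of this length, TTTATG in 5 and 10.8%, TGATNNAT in 4 and 7.68%, and TATAAA in 4 and 12.4%. The CTCF core, searched as 12 letters, was found in 0 of the 24 and in 1.02% of all. Hoxc4 and Hoxd4 both hold AGGTCA, Hoxd4 also holds TTTATG and TATAAA, Hoxa7 holds TTTATG 2 times, and the windows of Hoxa5, Hoxa9 and the shown start of Hoxa10 hold none of the 5. These matches describe letters and show no binding.

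Precursor cells were those left after the limits on genes, UMIs and mitochondrial share and after removal of glial, myeloid and myogenic clusters, 4331 of 5261 white and 5958 of 7009 brown cells. A UMI (unique molecular identifier) marks 1 captured transcript. Precursor cells held 122901443 UMIs in white and 169524786 in brown, with medians of 26949 and 26413 per cell. The precursor markers Pdgfra, Pdgfrb, Dlk1, Dcn and Col1a1 summed to 6172 CPM (UMIs per 1000000) in white and 5703 in brown precursor cells. Col1a1 alone gave 4920 and 4650 CPM of these. The sums were 1641 and 1730 CPM in glial, 343 and 881 in myeloid and 1710 in brown myogenic cells. Dlk1 alone was higher in brown myogenic than in brown precursor cells, at 582 against 383 CPM. In precursor cells the 7 glial markers summed to 21.7 and 18.2 CPM, against 2863 and 2087 in glial cells. The 7 myeloid markers summed to 9.77 and 11.6 CPM in precursor cells, against 14518 and 12015 in myeloid cells. The 4 mural markers, of cells around vessels, summed to 69.5 CPM in white and 40.1 CPM in brown precursor cells, with Myh11 at 41.2 and 15.6 and Rgs5 at 5.57 and 14.2, and their part in the depot differences was not tested. The libraries shared 9 cell barcodes, 8 of them among precursor cells. Levels below are UMIs of a gene per 1000000 UMIs of the cells (CPM) with exact 95% Poisson intervals, which cover counting error only, as do the other intervals. These are tags from 3′ ends and were not divided by gene length, so the order of different genes on this scale is only a description of tags. A sum over cells cannot tell fewer expressing cells from less RNA per cell.

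The white cells carried a more posterior set of Hox transcripts than the brown cells. White precursor cells held 71755 Hox UMIs, or 584 CPM, over 35 genes, of which 28 reached 1 CPM and 18 reached 10 CPM. Brown precursor cells held 66887, or 395 CPM, over 34 genes, of which 24 reached 1 CPM and 14 reached 10 CPM. Genes with at least 1 CPM in either depot and at least 10 UMIs over both were compared, and called apart at an observed fold of at least 2. Of the 28 Hox genes compared, 9 were called higher in white cells and 6 in brown cells. Over all 13371 genes compared, 1.83% were called higher in white and 1.77% in brown cells. The median log2 ratio of white over brown was -0.32 over the 28 Hox genes and 0.045 over all genes compared. The 11 Hox genes under the minimum were Hoxa6, Hoxa11, Hoxa13, Hoxb1, Hoxb13, Hoxc12, Hoxd1 and Hoxd10 to Hoxd13.

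**Figure D1:**
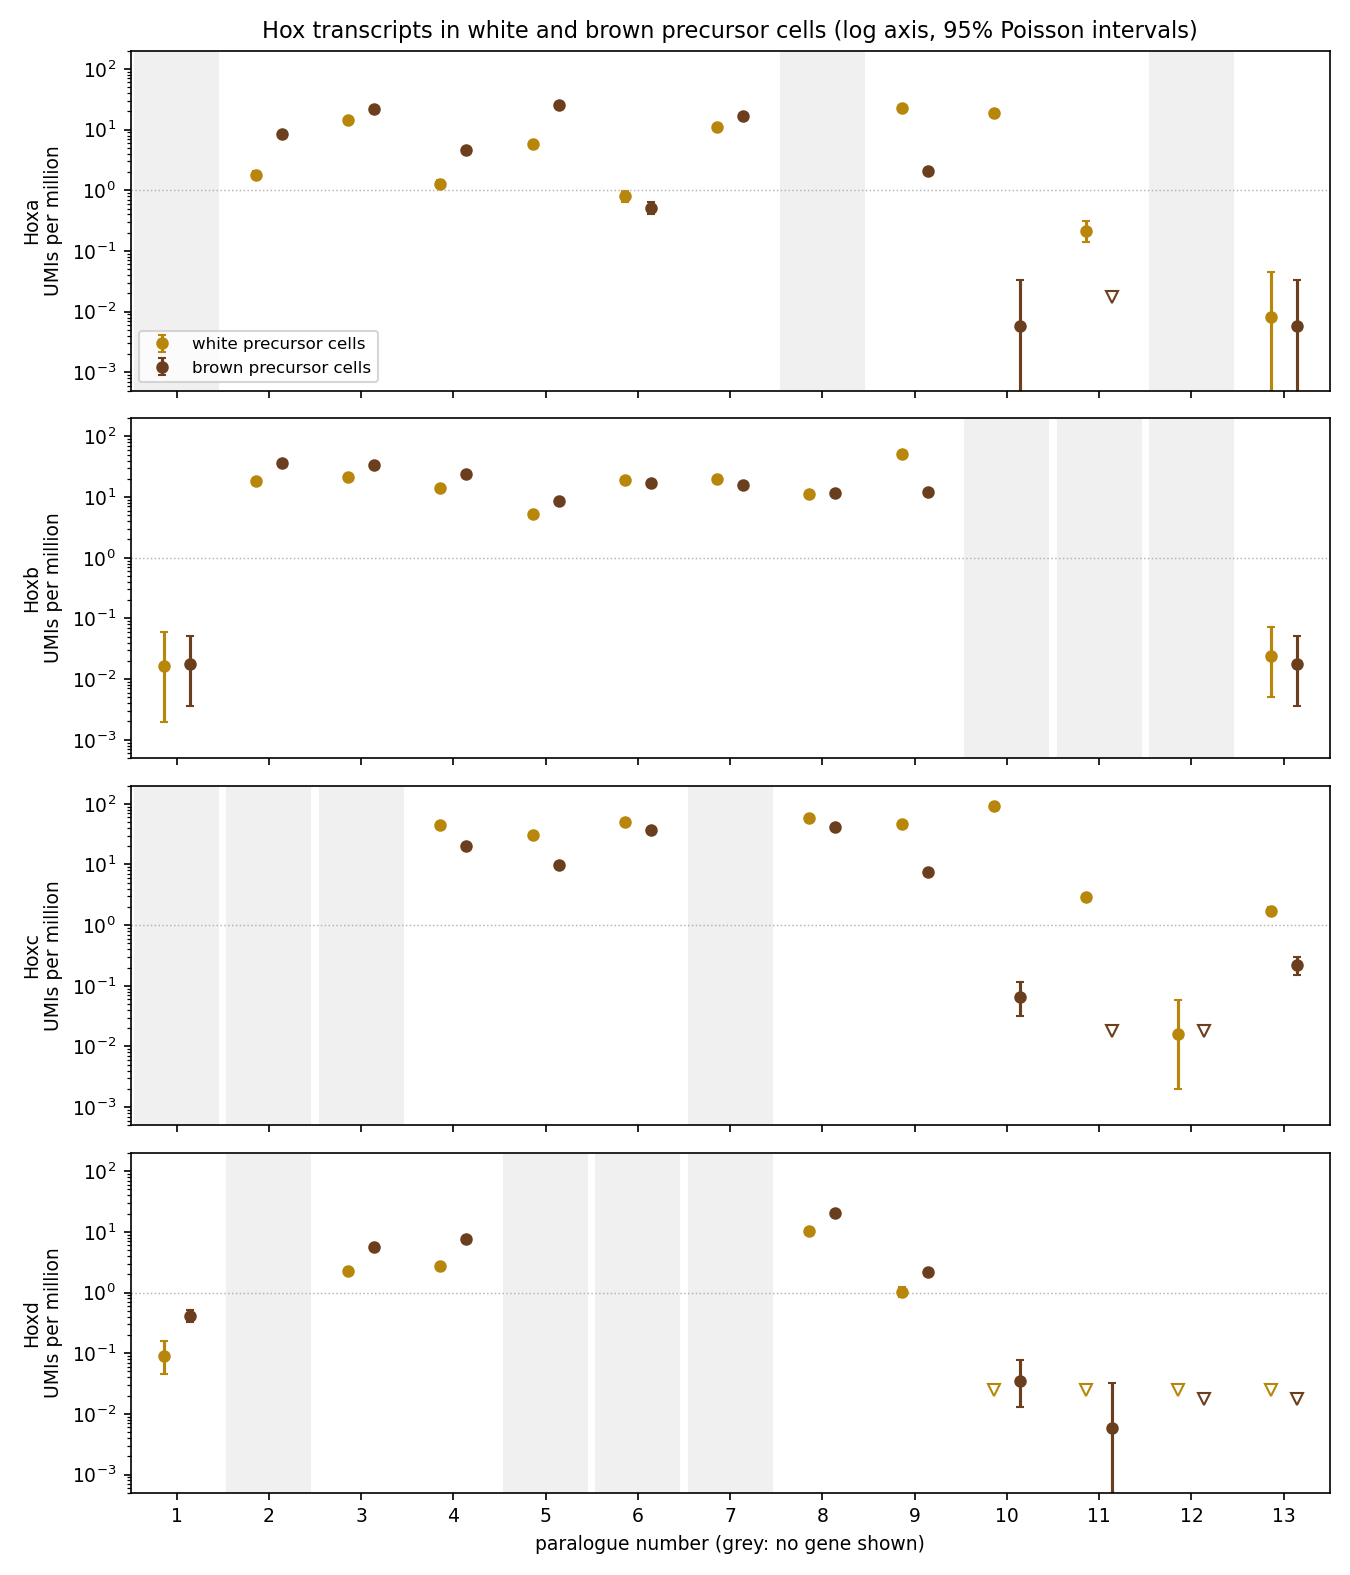
Level of each Hox gene reported in white (gold) and brown (dark brown) precursor cells, in CPM on a log axis, against paralogue number, 1 panel per cluster. Bars are 95% Poisson intervals, open triangles mark genes with 0 UMIs at the limit of 3 counts, grey columns have no gene shown, and the brown points of Hoxa10, Hoxc10 and Hoxc11 lie far under the white ones.

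The difference followed the paralogue number. Paralogues 9 to 13 summed to 238 CPM in white and 24.5 CPM in brown precursor cells, a log2 ratio of 3.28 (3.23 to 3.32). Paralogues 4 to 8 summed to 286 and 260 CPM, a log2 ratio of 0.14 (0.12 to 0.16). The sum of the middle group was therefore nearly level between the depots, but its single genes were not. Of its 14 genes compared, 2 were called higher in white and 3 in brown cells, with a median log2 ratio of -0.32. Paralogues 1 to 3 summed to 59.9 CPM in white and 110 CPM in brown cells, a log2 ratio of -0.88 (-0.92 to -0.84). Of all Hox UMIs, paralogues 9 to 13 made up 40.7% in white and 6.21% in brown cells, and paralogues 10 to 13 made up 19.7% and 0.0897%. Among the genes compared, 7 of the 8 with numbers 9 to 13 were called higher in white and 1 in brown, and all 6 with numbers 1 to 3 had higher levels in brown, 2 of them past 2-fold. Spearman's rho between paralogue number and log2 ratio was 0.71 across the 28 genes, which share the same 2 libraries and are not independent.

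The clusters differed in how they took part. All 8 Hoxc genes compared had higher levels in white cells, 6 of them past 2-fold, and all 4 Hoxd genes had higher levels in brown cells, 3 of them past 2-fold. Hoxc summed to 326 CPM in white and 116 CPM in brown cells, and Hoxd to 16.5 and 36.4 CPM. Hoxa summed to 78.8 and 82.8 CPM, although 2 of its 8 genes compared were called higher in white and 3 in brown cells. Hoxb summed to 162 and 159 CPM, with a log2 ratio of 0.026 whose interval (-0.00080 to 0.052) included 0, and 1 of its 8 genes compared was called, Hoxb9.

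**Figure D2:**
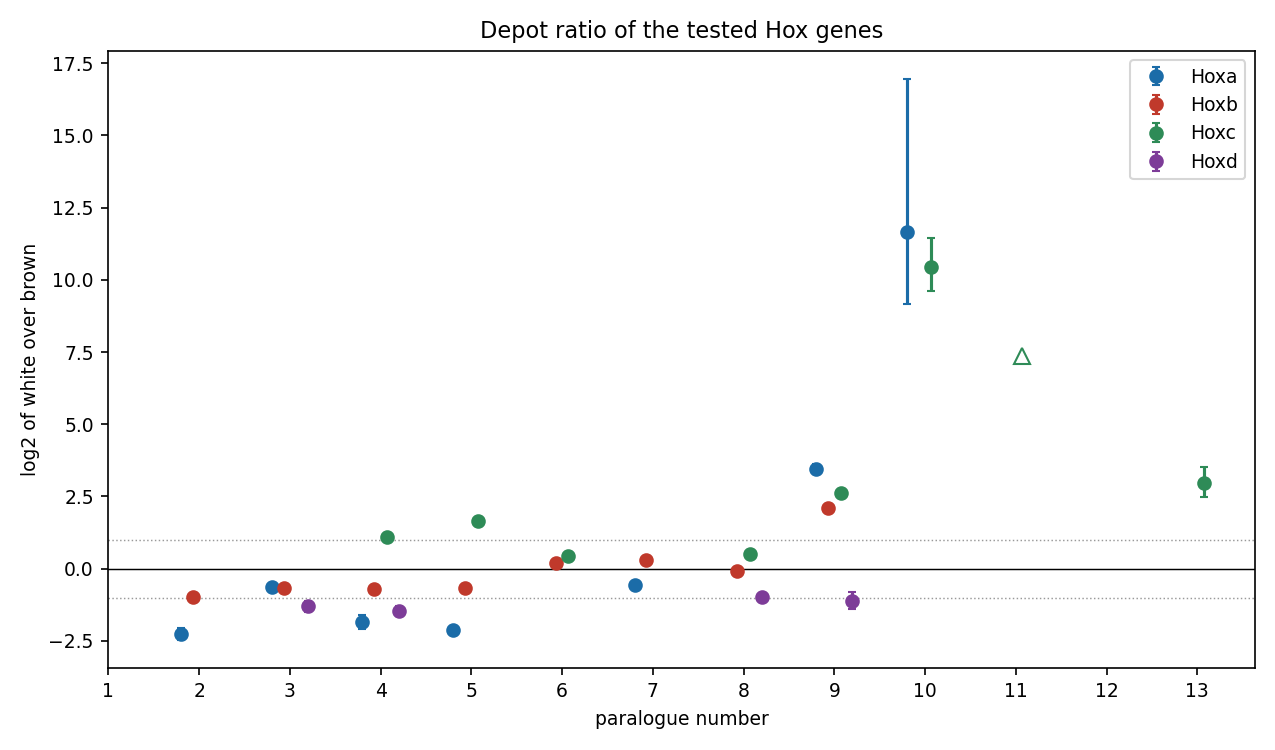
Log2 ratio of white over brown precursor cells for the Hox genes compared and reported, against paralogue number, coloured by cluster. Bars are 95% conditional binomial intervals, the open triangle (Hoxc11) is a lower bound against 3 counts, dotted lines mark 2-fold, and the genes from 9 up lie above 2-fold except Hoxd9 at -1.11.

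Among the posterior genes, Hoxa10, Hoxc10 and Hoxc11 had 11 or fewer UMIs in brown cells. Hoxc10, active in the lumbar cord and hindlimb region of the embryo, had 90.9 CPM (89.2 to 92.6) in white cells against 0.0649 CPM (0.0324 to 0.116) in brown cells. These were 11167 and 11 UMIs, a log2 ratio of 10.45 (9.61 to 11.45). Hoxc10 gave the most UMIs of the 39 genes in white cells. Hoxa10, which patterns the lumbar vertebrae and the uterus, had 19.1 CPM (18.3 to 19.9) in white cells and 1 UMI in brown cells, a log2 ratio of 11.66 with the wide interval of 9.18 to 16.96. By this ratio they ranked 1 (Hoxa10) and 2 (Hoxc10) of the 13371 genes compared from the white side. For these ranks counts of 0 were set at 3 counts, while a count of 1 was kept. The rank of Hoxa10 therefore rests on its 1 brown UMI, and its interval includes the ratio of Hoxc10. Hoxc11 had 2.94 CPM (2.64 to 3.26) in white cells and 0 UMIs in brown cells, where 3 counts would be 0.0177 CPM, so it was at least 166-fold higher in white. Hoxc13, a regulator of hair keratin genes, had 1.72 CPM (1.50 to 1.97) and 0.218 CPM (0.154 to 0.301), a 7.90-fold difference.

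Paralogue 9 was present in both depots, at unequal levels. Hoxa9 had 22.9 CPM (22.0 to 23.7) in white cells against 2.09 CPM (1.88 to 2.32) in brown cells, 10.9-fold higher in white. Hoxc9, a thoracic gene that sets the fate of motor neurons of the trunk, had 46.8 CPM (45.6 to 48.0) and 7.66 CPM (7.25 to 8.08), 6.11-fold higher in white. Hoxb9 had 52.2 CPM (51.0 to 53.5) and 12.2 CPM (11.7 to 12.7), 4.28-fold higher in white. The paralogue of the Hoxd cluster went the other way. Hoxd9 had 1.03 CPM (0.854 to 1.22) in white cells against 2.21 CPM (1.99 to 2.45) in brown cells, 2.16-fold higher in brown.

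The other genes from paralogue 10 up stayed under 1 CPM in both depots. Hoxa11, a gene of the forearm and lower leg, had 26 UMIs in white and 0 in brown cells, at least 11.95-fold higher in white. Hoxd12 and Hoxd13 had 0 UMIs in both depots, Hoxd10 and Hoxd11 had 0 in white and 6 and 1 in brown cells, and Hoxc12 had 2 and 0. Hoxa13 had 1 UMI in each depot and Hoxb13 had 3 in each. The limit of 3 counts was 0.0244 CPM in white and 0.0177 CPM in brown cells. The Poisson interval of a count of 0 reached 0.0300 CPM in white and 0.0218 CPM in brown cells.

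In the middle group, Hoxc8 and Hoxc6 were among the highest Hox genes of both depots. Hoxc8, a gene of the brachial and thoracic region, had 58.8 CPM (57.5 to 60.2) in white cells against 41.05 CPM (40.1 to 42.0) in brown cells. Hoxc6 had 50.4 CPM (49.2 to 51.7) and 36.7 CPM (35.8 to 37.7). Both ratios were under 1.5-fold, at 1.43 and 1.37. Hoxc4 had 44.0 CPM (42.8 to 45.2) and 20.5 CPM (19.9 to 21.2), 2.14-fold higher in white. Hoxc5 had 30.7 CPM (29.7 to 31.7) and 9.70 CPM (9.23 to 10.2), 3.17-fold higher in white. The annotated span of Hoxc5, chr15:102967443-103017429 on the plus strand (GRCm38), contains Hoxc6, Hoxc8 and Hoxc9 and overlaps Hoxc10, at chr15:102966796-102971893. How reads of the shared stretches were assigned was not tested. The values of Hoxc5, and of Hoxc6, Hoxc8, Hoxc9 and Hoxc10, are uncertain in this respect.

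Of the middle Hoxb genes, Hoxb6, Hoxb7 and Hoxb8 were nearly level, while Hoxb4 and Hoxb5 were higher in brown cells, under 2-fold. Hoxb6 had 19.5 CPM (18.7 to 20.3) in white cells against 17.0 CPM (16.4 to 17.6) in brown cells. Hoxb7 had 19.5 CPM (18.7 to 20.3) and 15.7 CPM (15.1 to 16.3). Hoxb8 had 11.3 CPM (10.7 to 11.9) and 11.9 CPM (11.3 to 12.4). The log2 ratio of Hoxb8, -0.073, had an interval of -0.17 to 0.027, which included 0. Hoxb4, known for its action in blood stem cells, had 14.4 CPM (13.7 to 15.0) and 23.6 CPM (22.9 to 24.4), 1.65-fold higher in brown, and Hoxb5 had 5.36 and 8.54 CPM, 1.59-fold higher in brown.

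The Hoxa and Hoxd genes of the middle group that could be compared were higher in brown cells. Hoxa5, which patterns the neck, upper thorax and lung, had 5.85 CPM (5.43 to 6.29) in white cells against 25.5 CPM (24.8 to 26.3) in brown cells, 4.37-fold higher in brown. Hoxa4 had 1.29 CPM (1.09 to 1.50) and 4.61 CPM (4.30 to 4.95), 3.59-fold higher in brown. Hoxd4 had 2.79 CPM (2.50 to 3.10) and 7.75 CPM (7.34 to 8.18), 2.78-fold higher in brown. So of paralogue 4 the Hoxc gene was called higher in white and the Hoxa and Hoxd genes in brown. Hoxd8 had 10.4 CPM (9.80 to 10.95) and 20.4 CPM (19.7 to 21.1), just under the 2-fold line at 1.97. Hoxa7 had 11.2 CPM (10.6 to 11.8) and 16.5 CPM (15.9 to 17.1), 1.47-fold higher in brown. Hoxa7, at chr6:52214491-52221854 on the minus strand, is the direct neighbour of Hoxa9, at chr6:52223100-52231089, so among the genes compared the turn from brown to white fell between these. Hoxa6, under the minimum for the comparison, was low in both depots, with 0.806 CPM in white and 0.513 CPM in brown cells. Its log2 ratio of 0.65 (0.22 to 1.08) lay on the white side, so it did not follow this turn. The annotated span of Hoxa3 contains Hoxa4, Hoxa5 and Hoxa6, and those of Hoxd3 and Hoxd4 overlap, in each case on the same strand. How reads of these stretches were assigned was not tested, so these values are uncertain.

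Of the anterior genes, Hoxa2 and Hoxd3 were past 2-fold. Hoxa2, which specifies the second pharyngeal arch, had 1.81 CPM (1.58 to 2.07) in white cells against 8.64 CPM (8.20 to 9.10) in brown cells, 4.76-fold higher in brown and the largest ratio in that direction among the Hox genes compared. Hoxd3 had 2.25 CPM (2.00 to 2.54) and 5.57 CPM (5.22 to 5.94), 2.47-fold higher in brown. Hoxb2, a hindbrain gene, had 18.7 CPM (18.0 to 19.5) and 36.6 CPM (35.7 to 37.6), at 1.95-fold just under the line. Hoxb3 and Hoxa3 were also higher in brown cells. Hoxb3 had 21.2 CPM (20.4 to 22.1) and 33.8 CPM (33.0 to 34.7), and Hoxa3, a gene of the thymus and parathyroid region, had 14.2 CPM (13.6 to 14.9) and 22.1 CPM (21.4 to 22.9). Hoxd1 had 0.0895 and 0.413 CPM and Hoxb1 had 2 and 3 UMIs.

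Counts per cell gave the same order. In all UMIs, a white precursor cell had a UMI of 9 different Hox genes at the median (quartiles 7 and 11) and a brown cell of 6 (5 and 8). With each cell thinned to 10000 UMIs, the medians were 4 and 3. The highest paralogue number with a UMI was 10 or more in 62.5% of thinned white cells and in 0.369% of thinned brown cells (88.4% and 0.789% before thinning). It was 9 in 23.7% of white and 19.0% of brown cells, and 8 or less in 13.8% and 80.6%, the latter including cells with no Hox UMI. Paralogue 8 was the most frequent highest number in brown cells, at 34.9%.

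Hoxc10 had a UMI in 3606 of 4331 white cells, 83.3% (82.1 to 84.4, Clopper-Pearson), or 54.4% after thinning. In brown cells it was 11 of 5958, 0.185% (0.0922 to 0.330), or 0.0839% after thinning, each with 1 UMI. Of these 11 cells 5 had a UMI of Zic1, a regional gene found in 40.9% of brown precursor cells and in 1 white cell. Hoxa10 had a UMI in 1555 white cells, 35.9% (34.5 to 37.4) or 16.3% after thinning, and in 1 brown cell. Hoxc9 had one in 67.3% of white (65.9 to 68.7) and 15.9% of brown cells (15.0 to 16.9), or 36.5% and 6.98% after thinning. Myeloid cells, which come from blood lineages, served as the background, since RNA in the medium can give UMIs in cells that do not make it. Of 29 white myeloid cells, with a median of 30076 UMIs, 1 had a Hoxc10 UMI. Of 78 brown myeloid cells, with a median of 26773.5 UMIs, 0 had one, where 3 cells would be 3.85%. Hoxc9 had a UMI in 3.45% of white and 2.56% of brown myeloid cells. So few myeloid cells cannot show whether the brown share of Hoxc10, or that of Hoxc13, lies above background. The 502 white cells (11.6%) with no UMI of paralogues 10 to 13 had a median of 24398 UMIs, and 0 of them had Zic1. Hoxc13 had more than 1 UMI in 7 of the 27 brown cells with any, and up to 4.

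Within each depot the named clusters of precursor cells were compared next. Cluster names were held for 1999 cells per depot, a first stretch of the source data. They are 4 early white clusters (wAPC 1 to 4), 5 early brown ones (bAPC 1 to 5), committed adipogenic precursors (wCAPs and bCAPs), fibro-adipogenic progenitor-like cells (wFAPLs and bFAPLs) and 15 differentiating wFAPLs. The Hox genes could have taken part in building these clusters, so differences between them are described without a test. In a clustering repeated here, 0 of the 2000 most variable genes of white precursor cells were Hox genes, and 5 of those of brown cells were, Hoxa5, Hoxa7, Hoxb9, Hoxc8 and Hoxc13.

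Hoxc10, Hoxc9 and Hoxc8 varied by about 1.5-fold or less between the white clusters, and Hoxc4 by 1.73-fold, from 31.1 CPM (wAPC 3) to 53.7 CPM (wCAPs). Without the differentiating cells, Hoxc10 lay between 73.7 CPM (wAPC 4) and 108 CPM (wFAPLs), Hoxc9 between 42.0 (wAPC 1) and 63.5 (wAPC 3) and Hoxc8 between 50.5 (wAPC 1) and 71.7 (wFAPLs), spreads of 1.47, 1.51 and 1.42-fold. Paralogues 9 to 13 made up 37.4% (wFAPLs) to 44.4% (wAPC 3) of Hox UMIs over these 6 clusters. Hoxb9 stood lower in wFAPLs, at 31.1 CPM against 46.9 to 58.3 in the other 5, and the 15 differentiating wFAPLs had 1 UMI of it (2.10 CPM), beside 53 of Hoxc10 (111 CPM). Hoxa10 ranged from 7.66 CPM (wAPC 4) to 21.8 CPM (wAPC 3), and Hoxa2 from 0.258 CPM on 2 UMIs (wAPC 2) to 3.38 CPM (wAPC 3). Hoxd3 and Hoxd4 were highest in wAPC 2, and Hoxd8 was near level there and in wFAPLs, at 16.6 CPM (13.9 to 19.7) and 15.6 CPM (12.9 to 18.8). There Hoxd3 had 4.25 CPM against 1.45 in the other named white cells, a log2 ratio of 1.55 (0.91 to 2.16), Hoxd4 had 5.15 against 2.34 and Hoxd8 16.6 against 9.78.

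Several genes differed widely between the brown clusters. Hoxa7 ranged from 1.55 CPM in bAPC 5 to 26.5 CPM in bCAPs, Hoxc8 from 11.8 CPM in bAPC 5 to 58.7 CPM in bAPC 3, and Hoxb9 from 2.12 CPM in bFAPLs to 16.6 CPM in bAPC 1. These are spreads of 17.1, 4.98 and 7.81-fold. Against them stood Hoxc5, at 7.96 to 10.6 CPM, and Hoxb2, at 30.05 to 45.4 CPM. Paralogues 10 to 13 had 0 UMIs in bCAPs and at most 0.579 CPM (bAPC 2) in any brown cluster.

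**Figure D3:**
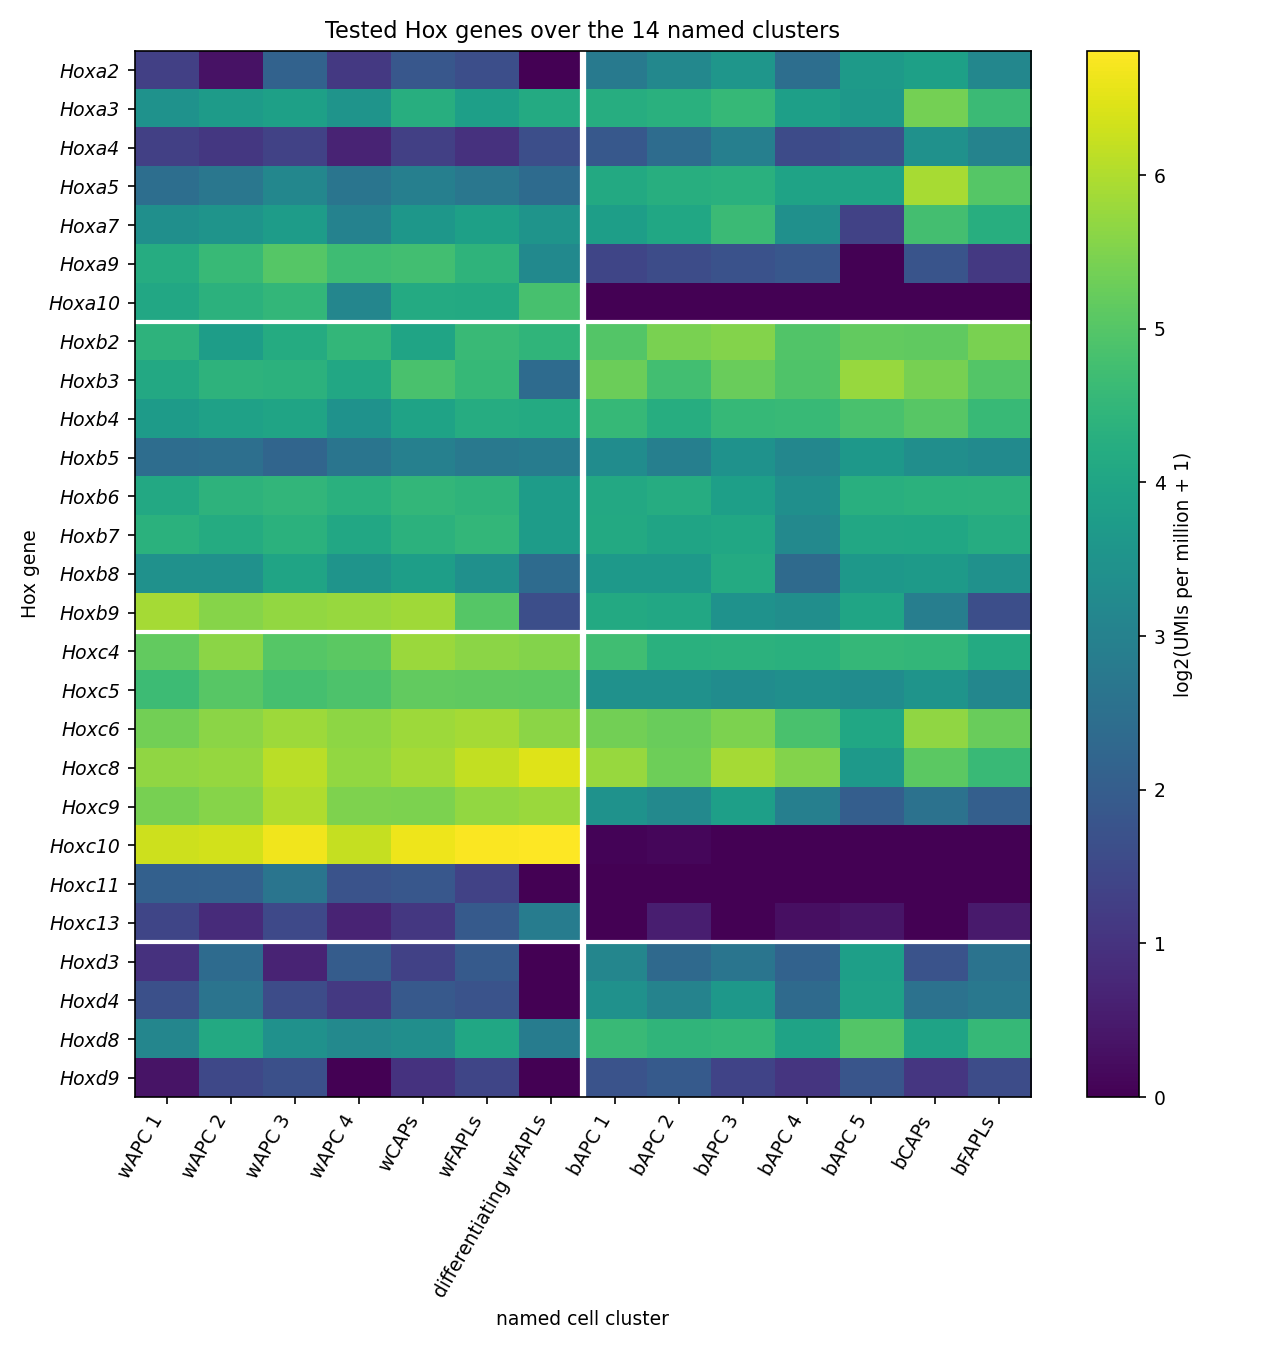
Level of the Hox genes compared and reported, as log2(CPM + 1) by colour, in the 14 named clusters, white on the left of the white line and brown on the right. Rows go from low to high paralogue number within each cluster of genes, Hoxa10, Hoxc10 and Hoxc11 are dark in all 7 brown columns, and the bAPC 5 column is dark at Hoxa7 and Hoxa9.

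The cluster bAPC 5 (115 named cells) had a different set from the other named brown cells, low in Hoxa7, Hoxc8 and Hoxc6 and high in Hoxd3. Of 24 Hox genes compared, 7 were called lower and 1 higher in bAPC 5, and over all 13481 genes compared 4.15% were called lower and 4.18% higher. This cluster was singled out after its values were seen. Hoxa7 had 1.55 CPM against 17.0, a log2 ratio of -3.45 (-5.08 to -2.23). Hoxc8 had 11.8 against 42.7 CPM, with -1.86 (-2.36 to -1.40), and Hoxc6 15.5 against 39.7 CPM, with -1.36 (-1.79 to -0.95). Hoxc9 and Hoxa4 were called lower on 10 and 7 UMIs, and Hoxa9 had 0 UMIs, against 1.92 CPM in the others. On the other side, Hoxd3 had 13.3 against 5.15 CPM, a log2 ratio of 1.37 (0.87 to 1.84). Hoxd4 had 13.9 against 7.55 CPM, Hoxb3 52.7 against 33.9 and Hoxd8 30.7 against 20.6, all under 2-fold. Summed by gene cluster, Hoxa was 43.05 CPM against 83.3 and Hoxc 61.6 against 121, while Hoxd was 61.3 against 35.7 and Hoxb 189 against 157. Paralogues 9 to 13 summed to 21.1 against 23.9 CPM. Hoxb9 had 15.2 against 11.7 CPM.

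In committed precursors the white-higher genes were again of paralogues 4, 5, 9 to 11 and 13, while the brown-higher genes were of Hoxa and Hoxb. Of 29 Hox genes compared, 9 were called higher in wCAPs and 7 in bCAPs, against 4.46% and 4.89% of all 13579 genes compared. Hoxa5 had 6.70 CPM in wCAPs and 59.2 CPM in bCAPs, a log2 ratio of -3.14 (-3.43 to -2.86). Hoxa4 had 1.44 and 9.87 CPM, with -2.77 (-3.45 to -2.14), and Hoxa7 11.1 and 26.5 CPM, with -1.25 (-1.53 to -0.98). Hoxa2, Hoxa3, Hoxb2 and Hoxb4 were the other genes called higher in bCAPs. Hoxd3, Hoxd4 and Hoxd9, called higher in brown over all precursor cells, were under 2-fold here, with Hoxd4 at 2.73 and 4.88 CPM. Hoxc10 and Hoxa10 had 97.9 and 17.0 CPM in wCAPs and 0 UMIs in bCAPs, which makes them at least 268-fold and 46.5-fold higher in wCAPs. Paralogues 9 to 13 summed to 245 and 14.9 CPM, a log2 ratio of 4.04 (3.78 to 4.31).

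The FAPLs of the depots also kept apart. Of 28 Hox genes compared, 10 were called higher in wFAPLs and 5 in bFAPLs, against 3.61% and 2.85% of all 13432 genes compared. Hoxc10 had 108 CPM in wFAPLs and 0 UMIs in bFAPLs, at least 272-fold higher in wFAPLs. Hoxc9 had 51.6 and 3.18 CPM, a log2 ratio of 4.02 (3.42 to 4.68), and Hoxb9 31.1 and 2.12 CPM, with 3.87 (3.14 to 4.70). Hoxc8, which was not called over all precursor cells, had 71.7 and 23.3 CPM, with 1.62 (1.37 to 1.87). Hoxa2, Hoxa4, Hoxa5 and Hoxd4 were among the genes called higher in bFAPLs. Hoxa5 had 5.44 and 31.4 CPM. Paralogues 9 to 13 summed to 234 and 9.02 CPM, a log2 ratio of 4.70 (4.35 to 5.07).

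Between CAPs and FAPLs of the same depot few Hox genes were called, about as few as the shares over all genes would give. In white cells 0 of 29 genes compared were called higher in wCAPs and 1 in wFAPLs, against 4.19% and 4.29% of all 13546 genes compared. That gene was Hoxc13, with 1.13 and 2.79 CPM on 22 and 20 UMIs. In brown cells 2 of 25 were called higher in bCAPs, Hoxb9 with 6.46 and 2.12 CPM and Hoxa9 with 20 and 9 UMIs, and 1 in bFAPLs, Hoxd3 with 2.32 and 5.04 CPM. The shares over all 13505 genes compared were 5.53% and 3.87%. Hoxb9 was higher in CAPs of both depots, with a log2 ratio of 0.84 (0.64 to 1.06) in white and 1.61 (0.78 to 2.51) in brown cells, and whether these ratios differ was not tested. Hoxa5 and Hoxa3 had brown log2 ratios of 0.91 (0.69 to 1.14) and 0.78 (0.51 to 1.05), and the intervals in white cells were -0.22 to 0.86 and 0.11 to 0.78.

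A few Hox genes were more often detected in single brown cells that also had Hoxc9, and most were less often detected there. With every cell at 10000 UMIs, 416 of 5958 brown cells had a Hoxc9 UMI. Hoxc8 had a UMI in 51.7% (46.8 to 56.6) of these and in 21.5% (20.4 to 22.6) of the others, Hoxc6 in 44.0% (39.2 to 48.9) and 27.0% (25.8 to 28.2), and Hoxa7 in 21.4% (17.5 to 25.7) and 12.0% (11.2 to 12.9). Hoxd8, Hoxd4 and Hoxb3 went the other way. Hoxd8 was found in 9.38% (6.75 to 12.6) and 18.8% (17.8 to 19.9), Hoxd4 in 2.88% (1.50 to 4.98) and 7.58% (6.90 to 8.31), and Hoxb3 in 20.2% (16.4 to 24.4) and 27.2% (26.1 to 28.4). Of the 19 Hox genes found in at least 5% of thinned brown cells, 7 were more frequent in cells with Hoxc9 and 12 less, with differences from 30.2 to -9.43 percentage points. In white cells, where 1581 of 4330 had Hoxc9, the same differences over 19 genes ran from 6.96 (Hoxc8) to -2.85 points (Hoxb9), and 15 of the 19 were more frequent with Hoxc9. Within bAPC 1, with names carried over to all precursor cells, Hoxc8 was in 54.8% of 155 cells with Hoxc9 and in 26.7% of 1608 without, so the brown difference was also seen inside a cluster. The cells come from the same library and are no replicates.

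**Figure D4:**
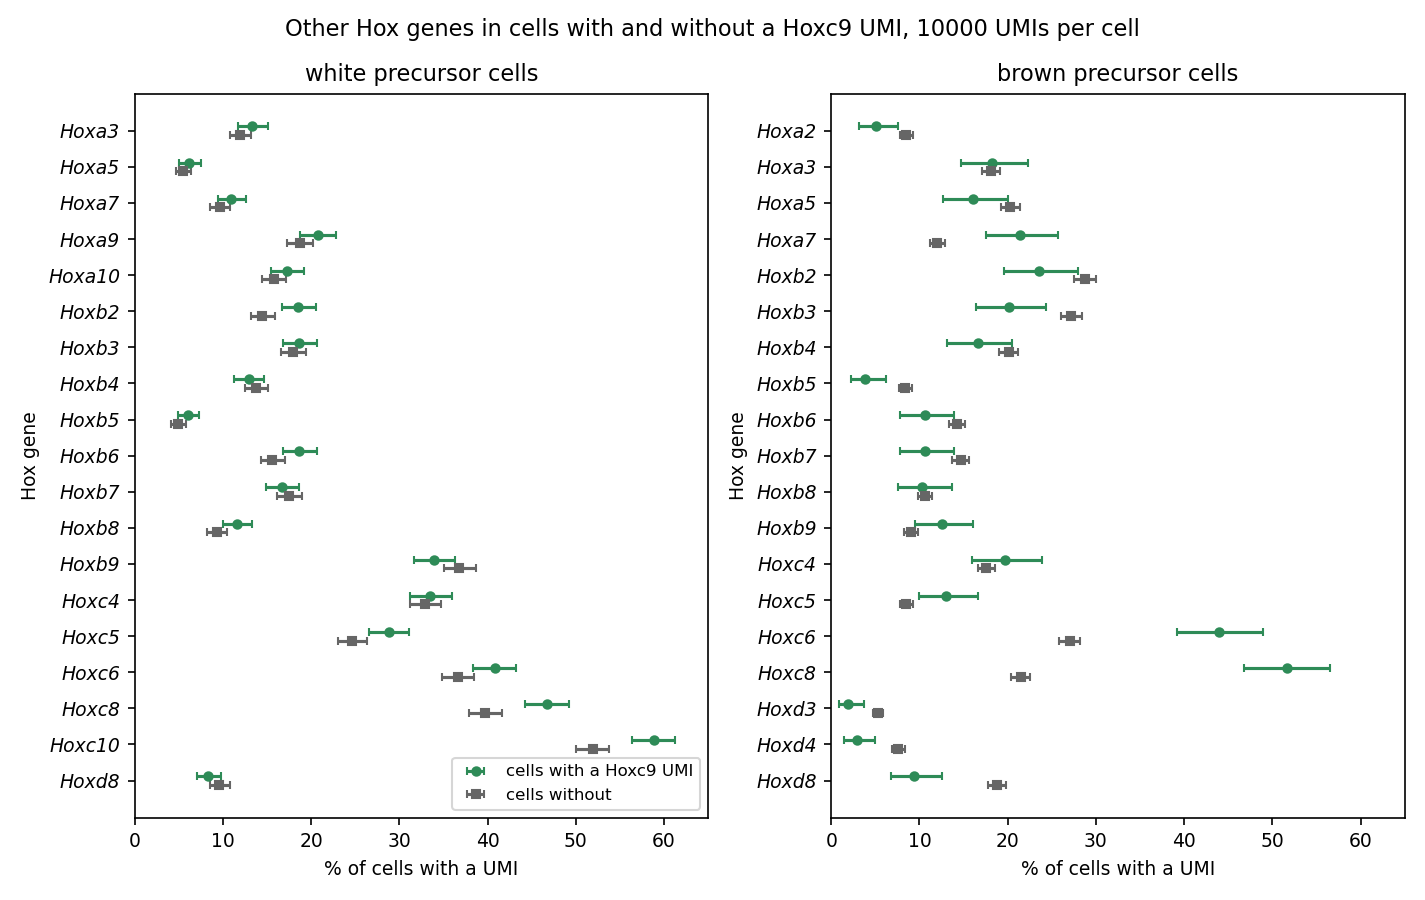
Share of thinned precursor cells with a UMI of each other Hox gene, in cells with (green circles) and without (grey squares) a Hoxc9 UMI, for white cells on the left and brown cells on the right. Bars are 95% Clopper-Pearson intervals, and in brown cells Hoxc8 and Hoxc6 lie far apart while Hoxd8 lies the other way.

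Hox transcripts were also counted in the other cell types of the cultures. Glial cells, the sheath cells of nerves (47 white and 68 brown), had less Hoxc than the precursor cells, and Hoxb made up 74.4% of Hox UMIs in white and 66.0% in brown glia. Hoxb summed to 165 CPM in white and 103 CPM in brown glia, against 162 and 159 CPM in the precursor cells, so its level was not higher in glia of both depots. Hoxc summed to 18.3 and 22.5 CPM, against 326 and 116 CPM in the precursor cells. Hoxb9 had 71.3 and 35.7 CPM and Hoxb7 36.6 and 26.5 CPM in glia. Hoxc10 had 4 UMIs in white glia (3.66 CPM) and 0 in brown. Of 14 Hox genes compared between the glia, 1 was called higher in white, Hoxb4 on 16 and 7 UMIs, and 3 in brown, Hoxa3, Hoxc4 and Hoxc8 on 1, 3 and 3 white UMIs, against 3.52% and 4.11% of all 10756 genes compared. Paralogues 9 to 13 summed to 85.0 CPM in white and 36.4 CPM in brown glia. This was a log2 ratio of 1.22 (0.73 to 1.73), with Hoxb9 giving 78 of 93 white and 54 of 55 brown UMIs. Hoxd summed to 28.3 and 11.3 CPM on 31 and 17 UMIs. Its log2 ratio was 1.33 (0.43 to 2.28), against -1.14 in the precursor cells, and this difference was not tested. For paralogues 1 to 3 and 4 to 8 the intervals included 0. The log2 ratio of Hoxb9 between the glia was 1.00 (0.48 to 1.52), below the 2.10 of the precursor cells, and the difference of these ratios was not tested.

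The 33 brown myogenic cells had 169 CPM of Hox transcripts, led by Hoxb4 at 27.3 CPM (27 UMIs), Hoxb2 at 17.2 and Hoxd8 at 16.2, with Hoxc8 at 5.06 CPM. Myeloid cells were lowest, with 17.7 CPM in white and 63.7 CPM in brown cells over all 39 genes. In brown myeloid cells the shares of the 4 clusters, 20.6% Hoxa, 46.3% Hoxb, 25.7% Hoxc and 7.35% Hoxd, lay near those of the brown precursor cells, 21.0, 40.4, 29.4 and 9.22%. In brown glia they were 12.3, 66.0, 14.5 and 7.23%.

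**Figure D5:**
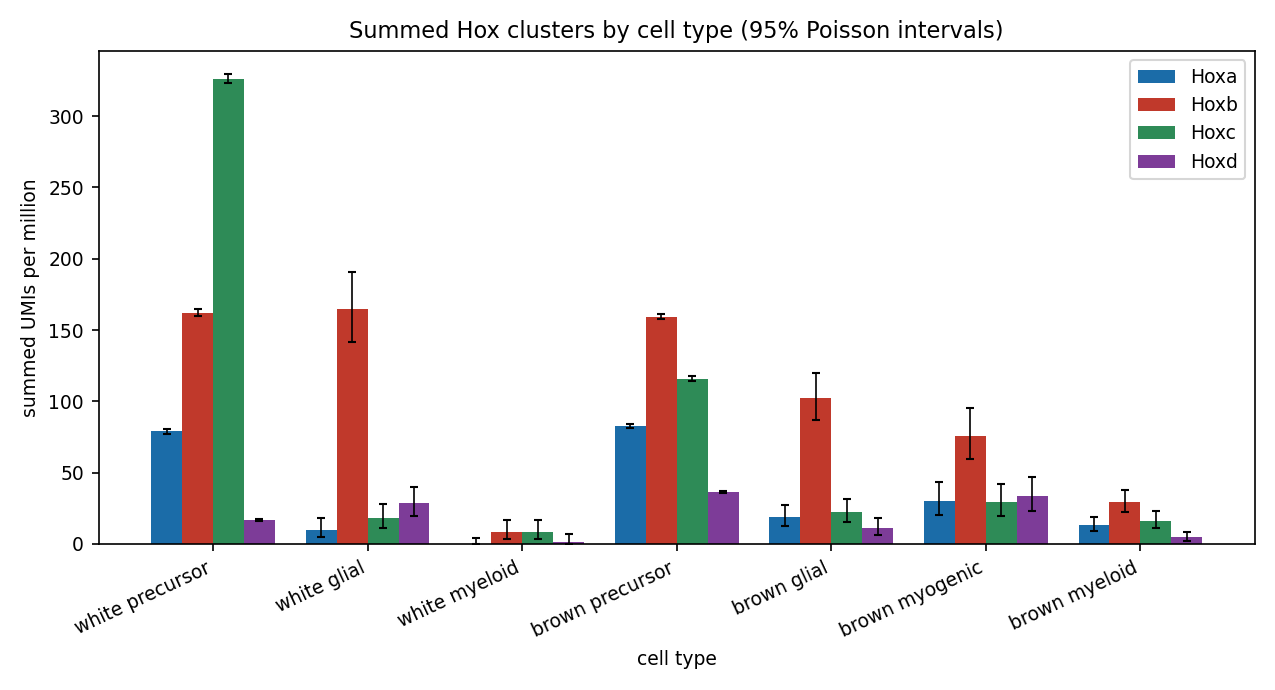
Summed level of the Hoxa, Hoxb, Hoxc and Hoxd genes, in CPM, in each cell type and depot, with 95% Poisson intervals. Hoxc is the highest bar of white precursor cells at 326, and Hoxb is the highest bar of both glial sets.

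The transcripts that run beside or against the Hox genes were higher in brown cells wherever they could be compared. Of 11 listed, 6 could be compared and all 6 were called higher in brown cells, with log2 ratios from -2.97 to -1.02. Hoxb5os had 2.58 CPM in white and 18.2 CPM in brown cells, a log2 ratio of -2.82 (-2.99 to -2.65), although Hoxb5 and Hoxb6, which it overlaps, were within 2-fold. Hotairm1, at the anterior end of Hoxa, had 11.7 and 31.6 CPM and was the highest of the list. Hoxaas2 had 0.708 and 5.54 CPM, Hoxaas3 1.75 and 4.34, Hoxb3os 3.41 and 8.13 and Hoxd3os1 3.11 and 6.30. The other 5 were under the minimum. Hotair, which lies in the Hoxc cluster, and Hoxa11os each had 26 UMIs in white and 0 in brown cells, Haglr had 22 and 123, Halr1 had 5 and 82, and Hottip had 0 in both.

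The partners and regulators of Hox proteins were counted against the 1.83% and 1.77% of all genes called, a background at which lists of this size would hold few calls. Of the 9 TALE cofactors (Pbx, Meis and Pknox genes), whose products bind DNA together with Hox proteins, 0 of 9 passed 2-fold, with log2 ratios from -0.27 to 0.77. Of the upstream list, 7 of 11 could be compared and 1 was called, Rarb, a retinoic acid receptor, with 3.83 and 1.79 CPM. Its highest member was Tgfbr1, with 61.8 and 50.6 CPM. Cdx2 and Cdx4, which switch on posterior Hox genes in the embryo, had 0 UMIs in both depots, and Cdx1 had 9 and 18. Of 18 Polycomb and trithorax genes, which maintain Hox patterns through cell divisions, 17 could be compared and 0 passed 2-fold, with log2 ratios from -0.18 to 0.32. Kmt2a was the highest, with 83.4 and 68.2 CPM.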

How the data were processed

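Cultured white and brown adipose precursor cells were measured by 3′ single-cell RNA sequencing. The authors counted reads with Cell Ranger 7.0.1 per the labels, and the deposited values are raw UMI counts for each gene in each called cell. Counting used default settings on the mm10 reference per the study's methods, and the defaults of this version count sense-strand reads, introns included. Genes found in at least 3 cells were used for the filter. Cells had to have over 3900 and under 7700 genes, 1.7 to 5% mitochondrial UMIs and 6000 to 60000 UMIs. Clusters were rebuilt in Seurat 5.3.0 (R 4.3.3) (resolution 0.5, 10 components, 2000 variable genes), and glial, myeloid and myogenic clusters, named by at least 3 markers at 50 CPM and 2 times the other clusters, were removed. No doublet call was made. Cluster names came from the study's source data for 1999 cells per depot. The vote of 15 nearest named cells returned the own name of 91.7% of white and 88.0% of brown named cells.

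UMIs were summed over cells and divided by all UMIs of those cells. Ratios carry conditional binomial intervals at 95%, and counts of 0 were set at 3 counts for a bound. Such a bound leaves out the counting error of the other count. With 1 library per depot no test was run. Depth per library was 144451047 white and 205551320 brown UMIs, with medians of 26239 and 26411 per captured cell. Intervals, calls and thinning were tested on simulated data, whereas the bounds were not. Calculations used scikit-learn 1.9.0, pandas 2.3.3, scipy 1.17.1 and numpy 2.4.6 under Python 3.11.15. Gene spans are GENCODE M21 (GRCm38), and all 39 identifiers matched. Alternatives were other cell sets, scalings, thinning, minimum levels and folds.

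The members and lists were chosen with earlier results of these data known. Values were given for Hox genes of at least 10 CPM in either depot, for the 5 with the largest ratio in each direction, for Hoxc9 and Hoxc10, for genes called in a comparison and, of the related lists, for those past 2-fold and the highest. Other values, bAPC 5 and the Hoxc9 cells were chosen after the values were seen, as was the motif list. Values of 1 Hox gene and of 1 cofactor are not reported here.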

Additional observations from a re-analysis of the deposited data

Results flagged for a closer look

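Hoxc8 differed between CAPs and FAPLs in opposite directions in the depots. In white cells it was lower in wCAPs than in wFAPLs, 58.7 against 71.7 CPM, a log2 ratio of -0.29 (-0.44 to -0.14). In brown cells it was higher in bCAPs than in bFAPLs, 33.2 against 23.3 CPM, a log2 ratio of 0.51 (0.23 to 0.79). The intervals cover counting error only, and the difference between the depots was not tested.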

How the results depend on the processing

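With 1 library per depot no library could be left out. No paired analysis was possible because the depots share no replicate number beyond 1 library each and no result came from a test. The 9 Hox genes called higher in white precursor cells became 7 at 10 CPM or more and 10 with no minimum. The 6 called higher in brown became 1 at 10 CPM or more and 13 at 1.5-fold, and 5 to 8 otherwise. The summed log2 ratio of paralogues 9 to 13 lay between 3.23 and 3.31 over the 5 alternatives. With scaling by the median ratio, which was 0.043, paralogues 4 to 8 moved to 0.096 and 1 to 3 to -0.92. In FAPLs, paralogues 9 to 13 moved from 4.70 to 4.31 with names carried over.

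Counts between CAPs and FAPLs were small and unsteady. In white cells the 1 gene became 2 with names carried over, 5 in thinned cells, 0 at 10 CPM or more, 7 at 1.5-fold and 0 with the whole interval past 2-fold. In brown cells the 3 became 5, 1, 0, 11 and 0 in that order. The median number of Hox genes per cell fell with thinning from 9 to 4 in white and from 6 to 3 in brown cells, and was 8 in white cells over all captured barcodes. Of 139 single-gene depot ratios under other cells, scalings or depths, 138 kept their direction. Hoxb8 turned to 0.017 in the named cells. Few cells limit glia, bAPC 5 and FAPLs.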
